A study of Nothobranchius furzeri with 3 samples.

Results

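The comparison described here sets the basal epidermis of aged Nothobranchius furzeri treated with tunicamycin, named aged (Tm), against that of young fish kept in the solvent DMSO, and uses 7 of the 11 libraries of the series. Its members were taken by label: the 3 aged (Tm) libraries and the 4 young libraries. The remaining 4 libraries are from aged fish kept in DMSO; they entered the common estimate of variance and are quoted beside some values, against the same young libraries. The question was which genes remained different from young after the treatment and which did not.

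Photo-isolation chemistry (PIC) reads RNA only from cells under a beam of light: caged reverse transcription primers on a tissue section are released by UV. Here the light was aimed at basal layer cells that stained for p63, on sections that the methods of the study describe as trunk and fin. A supplementary legend of the study speaks of the fin only. The fish carry no transgene according to the labels. Young fish stood in DMSO and aged (Tm) fish in water with tunicamycin at 1 µg/mL for one night in the labels or for a full day in the methods of the study. The fish of both groups therefore differed in age and in treatment at once, and with the aged DMSO libraries left aside the contributions of age and tunicamycin cannot be told apart. The study gives ages of young and aged fish for other assays and counts these libraries as biological replicates, but the fish behind each library are not described, so the spread between libraries may be partly technical.

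Tunicamycin blocks the first step of N-glycosylation, so glycoproteins misfold in the endoplasmic reticulum (ER). Several sensors then act: Ire1 splices the mRNA of the transcription factor Xbp1, Atf6 is cleaved, and Perk slows translation while Atf4 mRNA is favoured. Their targets include ER chaperones, the translocon, ER-associated degradation (ERAD) and, for Atf4, amino acid transporters and tRNA synthetases. In skin, basal keratinocytes are attached to the basement membrane by integrins, carry p63 and keratin 5, and divide to renew the layers above.

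Depth differed between the groups. Total counts were 319223 to 705538 in the aged (Tm) and 35366 to 298033 in the young libraries, a difference that an exact permutation test over 35 splits gave p = 0.057. Genes with more than 1000 counts numbered 79 to 134 in aged (Tm) and 3 to 30 in young libraries, and held 36.1 to 37.6% against 13.8 to 17.4% of the counts (both exact p = 0.029, the smallest that 35 splits allow). The largest count of a single gene was 3527 to 4317 in aged (Tm) and 2035 to 4331 in young libraries, although the totals differed much more. Genes detected after thinning every library to 35366 counts were 5087 to 7480 in aged (Tm) and 5818 to 9205 in young libraries. Aged (Tm) replicate 3 was the deepest library and had lower levels of many treatment-high genes than the other aged (Tm) libraries, and young replicate 3 was the shallowest. Each condition carries a single library name in the labels and 3 of the 4 barcodes recur in all 3 conditions, so any difference in how the conditions were prepared cannot be told apart from the conditions.

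Markers of other tissues moved with the groups and are given here because they touch many of the results. Summed CPM, the counts of a gene list scaled to a common library total, of 54 skeletal muscle genes were 4812 to 8552 in aged (Tm) libraries and 24762 to 93847 in young libraries, with no overlap. Summed CPM of 22 fibroblast and bone genes were 600 to 2397 and 8822 to 20669, again with no overlap. Genes that epidermis hardly uses (202 receptor, opsin and synapse genes) summed to 648 to 1579 CPM in aged (Tm) and 1413 to 4354 CPM in young libraries. The 13 basal keratinocyte genes summed to 19422 to 24938 and 26561 to 61245 CPM, lower in aged (Tm) with no overlap. The gene krt5 weighs heavily in the basal sum, with 2035 of the 35366 counts of young replicate 3. Its raw counts, given with the basal markers below, differed much less between libraries than the totals did. How far the lower basal sum in the deeper aged (Tm) libraries follows from that was not tested. Gene by gene the basal list differed from its sum: in the fit below its 10 tested members had a median log2 fold change of 1.06. Of these 4 were called higher and 1 lower (40 and 10%, beside 15.9 and 13.2% of all tested genes), and the 4 became 1 without aged (Tm) replicate 1. In bulk libraries like these, fewer cells of a type and less RNA per cell cannot be told apart, and the part of muscle and dermis in the results below was not tested beyond the fits described next.

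**Figure D1:**
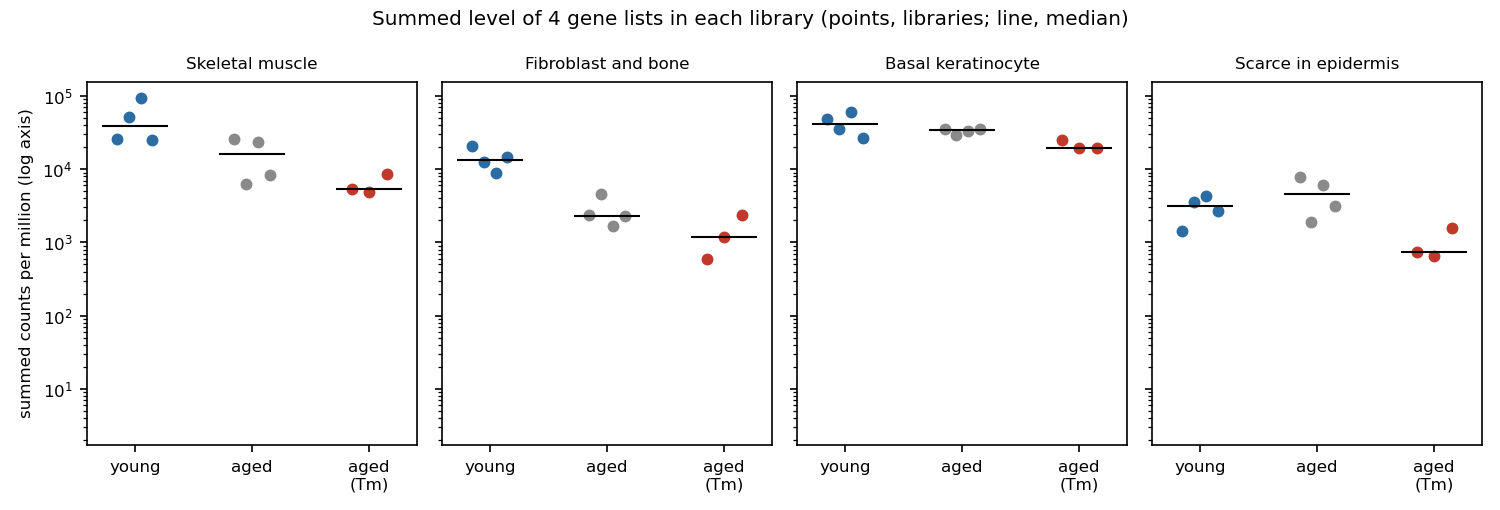
Summed CPM of 4 gene lists in every library on a log axis, with young, aged and aged (Tm) libraries as points and the median as a line. Skeletal muscle genes lie between 24762 and 93847 CPM in young and between 4812 and 8552 CPM in aged (Tm) libraries, and fibroblast and bone genes are likewise separated.

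Of 22954 genes, 3963 had enough counts to be tested, and 1155 of them (29.1%) differed between aged (Tm) and young libraries by edgeR's quasi-likelihood test at a Benjamini-Hochberg adjusted p below 0.1. The filter asked for enough counts in only as many libraries as the smallest group has. A gene could thus enter through the group where it was high, while scarce genes of like level in both groups stayed out. The shares and medians of the lists below therefore partly reflect the filter. Of the 1155 called genes 632 were higher in aged (Tm) (15.9% of the tested genes) and 523 lower (13.2%), and 507 differed by 4-fold or more. Both shares are the background for the counts called in each list below. The groups did not overlap for 1283 tested genes (32.4%). For comparison, the aged libraries differed from the same 4 young libraries in 28 genes (0.707%). The totals of the aged libraries were 37655, 265509, 51321 and 180319, below every aged (Tm) total. Log2 levels of the tested genes correlated at 0.18 to 0.85 between aged libraries and at 0.87 to 0.90 between aged (Tm) libraries. The counts 28 and 1155 thus come from data of unlike depth and spread, and their part in the gap was not tested. Where a list below has 0 genes called in a direction, the unadjusted p was below 0.05 for 3 members in all over 5 lists (higher) and 2 over 13 lists (lower), DESeq2 called 5 and 0 members of those lists in these directions, and limma voom 0 and 1. In simulated counts the test called 28% of genes set to -2 on the log2 scale and 66% of genes set to 2. A list with 0 lower genes called therefore does not show that no member was lower. All log2 fold changes below are aged (Tm) against young from this fit unless another is named. Levels are normalized CPM, that is CPM scaled by the TMM (trimmed mean of M-values) factor of each library, listed in the order of the replicates.

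The median log2 fold change over all tested genes was -0.10, and the direction of small differences depended on the scaling. With RLE, upper quartile and total count scaling the median was 0.15, -0.52 and -0.45, and the share of called genes that were higher was 69.7, 30.9 and 42.2% instead of 54.7%. The number called was 498 without aged (Tm) replicate 1, 578 without replicate 2 and 672 without young replicate 2. With the summed level of the receptor, opsin and synapse list, or of skeletal muscle, as a covariate, 207 and 269 genes were called, of which 67 and 32 were higher. With these 2 covariates, 4 and 2 ER chaperone genes were called higher instead of 9, 3 and 0 Atf4 genes instead of 10, 3 and 2 translation factor genes instead of 17, and 0 and 0 instead of 20 proteasome and of 21 nuclear oxidative phosphorylation genes. Skeletal muscle levels did not overlap between the groups, so that fit relies on each gene having the same relation to muscle level in all groups. Of its 269 calls, 99 were among the 1155 of the main fit. The receptor, opsin and synapse levels did overlap, and 172 of those 207 calls were among the 1155. Of the 130 named genes that were called, 35 lost the call when some single library was left out and 0 changed sign. Genes too low to be tested in such a fit are not counted as lost. Of the 155 named genes 131 were tested without young replicate 4, and 143, 144 and 144 without aged (Tm) replicates 1, 2 and 3. The calls of plecb, pkma, FTH1A, NQO1, robo2, sema3bl, EIF4A2, HSP90B1, S100A2, SEC61A1, sec61g, srp72 and ssr2 were each lost on leaving out any of at least 4 different libraries. Of the 155 genes named, 76 were called no longer and 26 changed sign with the muscle covariate, and 78 were called no longer and 2 changed sign with the other.

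The 10 highest genes in aged (Tm) that met the naming rule were mmp13a, OLA.5669, odc1, areg, NARS, HDAC6, CHAC1, ptgs2b, FOS and SATL1, and NARS, CHAC1 and FOS are described with their groups. The gene mmp13a, which encodes a collagenase of tissue remodelling, was at 18481, 14226 and 1532 normalized CPM in the aged (Tm) libraries and at 41.6, 17.7, 0 and 11.3 in the young libraries, or 9.24 on the log2 scale (SE 1.17, adjusted p = 5.5e-05). The gene areg, which encodes the epidermal growth factor receptor ligand amphiregulin, was at 1869, 508 and 71.2 against 13.9, 0, 0 and 18.9, or 6.08 on the log2 scale (SE 0.97, adjusted p = 3.0e-04). Both genes were nearly absent from young libraries, and in both the third aged (Tm) library was the lowest of its group but above every young one.

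The gene odc1, the first enzyme of polyamine synthesis, was at 4864, 2410.1 and 575 normalized CPM against 0, 53, 30.0 and 34.0, or 6.36 on the log2 scale (SE 0.94, adjusted p = 2.0e-04). The gene annotated SATL1, named for its likeness to the enzyme that acetylates polyamines, was at 576, 492 and 64.8 against 13.9, 8.83, 0 and 26.5 (log2 fold change 4.39, SE 0.74, adjusted p = 5.4e-04). Both of these genes were higher, with no overlap between the groups. They were named for their large fold changes, and no list of polyamine genes was examined. The gene ptgs2b, a cyclooxygenase of prostaglandin synthesis, had 2378, 566 and 107 normalized CPM against 41.6, 53, 0 and 34.0 (log2 fold change 4.77, SE 0.82, adjusted p = 5.7e-04). The gene labelled HDAC6, a cytosolic deacetylase in mammals, had 9427, 5670.0 and 954 against 235, 88.3, 60.1 and 182 (log2 fold change 5.19, SE 0.87, adjusted p = 5.4e-04), and the locus OLA.5669, whose role is not annotated, 6276, 3773 and 275 against 41.6, 26.5, 0 and 45.4 (log2 fold change 6.68, SE 1.00, adjusted p = 2.3e-04). Aged against young values of the same genes were 1.21 for mmp13a, 0.20 for areg, 0.75 for odc1, 0.33 for ptgs2b and 0.23 for HDAC6, and none of them was called in that comparison.

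**Figure D2:**
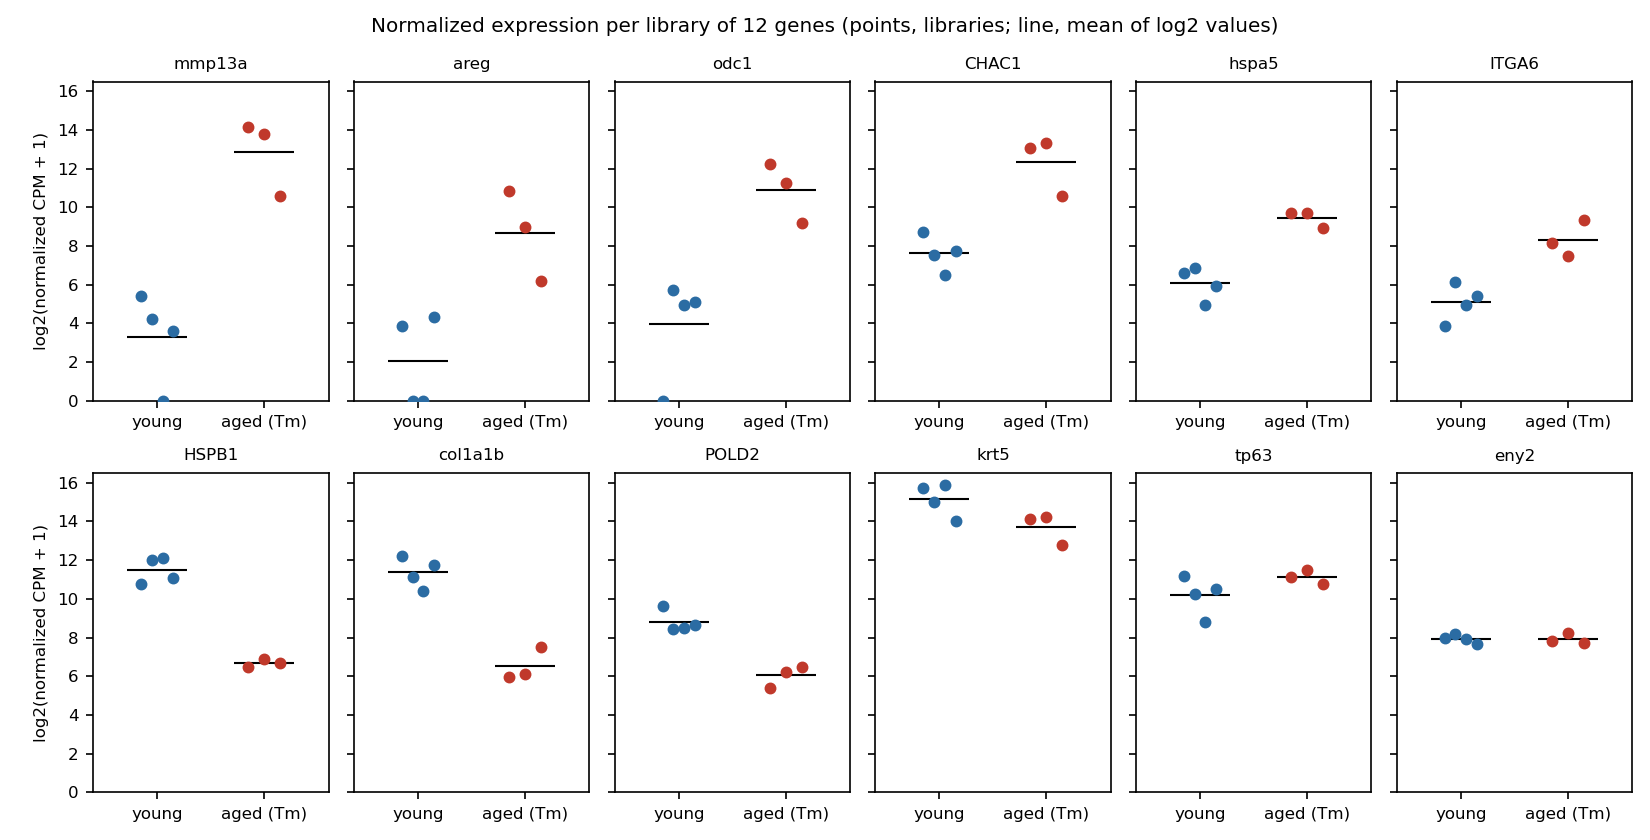
Normalized expression of 12 genes in each of the 4 young and 3 aged (Tm) libraries, as log2(normalized CPM + 1), with the mean of the log2 values as a line. From mmp13a to ITGA6 every aged (Tm) library lies above every young library, from HSPB1 to POLD2 every one lies below, and krt5, tp63 and eny2 were not called.

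Most tested ER chaperone genes were higher in aged (Tm). Among 41 ER chaperone and folding enzyme genes in the table, 12 could be tested, of which 9 were higher and 0 lower (75 and 0%, beside 15.9 and 13.2% of all tested genes). The median log2 fold change of the list was 1.6 beside -0.10 over all tested genes. Their median in aged against young was 0.04. The gene hspa5, which encodes the main ER chaperone BiP, was at 836, 834 and 484 normalized CPM in aged (Tm) and 97.0, 115, 30.0 and 60.5 in young libraries, or 3.17 on the log2 scale (SE 0.55, adjusted p = 6.7e-04). The protein disulfide isomerase gene pdia6 was at 104, 214 and 108 against 13.9, 26.5, 0 and 22.7 (log2 fold change 2.77, SE 0.56, adjusted p = 0.0021). Its counts were 20, 40 and 67 against 1, 3, 0 and 6, so it could enter the test through the aged (Tm) libraries alone. Neither gene overlapped between the groups, and unlike mmp13a they were of similar level in all 3 aged (Tm) libraries. The gene sdf2l1, a partner of BiP, and its co-chaperone DNAJB11 had log2 fold changes of 3.00 and 1.95 (adjusted p = 0.0078 and 0.012). HSP90B1, the ER form of the 90 kDa heat shock protein, had 2336, 2586 and 1906 normalized CPM against 789, 839, 1022 and 662, and lay just inside the threshold, with a call that was lost when any library but aged (Tm) replicate 3 was left out (log2 fold change 1.46, SE 0.61, adjusted p = 0.089). The count of 9 was 4 without aged (Tm) replicate 2, 5 without young replicate 4, and 5 and 4 with upper quartile and total count scaling.

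Of 57 genes of UPR sensors, ERAD and translocation, 22 were tested, and 8 were higher and 0 lower (36.4 and 0%, beside 15.9 and 13.2% of all tested genes, median 1.00). The 8 higher genes were SSR3, SSR4, ssr2, SEC61A1, sec61g, srp72 and srprb, which encode parts of the machinery that brings proteins into the ER, and the ERAD factor selenok. The 4 with the smallest p were SSR3 and SSR4 of the translocon-associated complex (2.24 and 2.24), the ERAD factor selenok (1.88) and srprb, a subunit of the signal recognition particle receptor (1.45), with adjusted p of 0.011, 0.014, 0.023 and 0.034. SSR3 was at 753, 454 and 304 normalized CPM in aged (Tm) libraries and 166, 53, 30.0 and 144 in young libraries. The sensor Ire1 has the genes ERN1 and ern2, which are given here outside the rule for named genes. ERN1 was at 57.1, 85.5 and 50.2 normalized CPM in aged (Tm) and 97.0, 61.8, 60.1 and 151 in young libraries and ern2 at 36.3, 10.7 and 42.1 against 41.6, 61.8, 150.2 and 90.8, both with overlap and not called (-0.68 with a 95% interval of -1.64 to 0.29, and -1.31 with -2.60 to -0.03, adjusted p = 0.28 and 0.13), although ern2 was called lower when young replicate 1 was left out. The remaining sensors and Xbp1 had too few counts to be tested: XBP1 had 1 count in all aged (Tm) libraries together and 0 in all young libraries, atf6 had 20 and 10, and EIF2AK3, which encodes Perk, 36 and 7. DDIT3, the Atf4 target known as CHOP, had 37 and 12 counts and was not tested. VCP, the ATPase that extracts ERAD substrates, was at 581, 305 and 423 normalized CPM against 139, 309, 331 and 284, with overlap between the groups and a value of 0.72 on the log2 scale (SE 0.50, adjusted p = 0.28). Its 95% interval of -0.31 to 1.75 includes both no difference and more than a 2-fold one.

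N-glycosylation, the process that tunicamycin blocks, had 12 tested genes of 42, of which 5 were higher and 0 lower (41.7 and 0%, beside 15.9 and 13.2% of all tested genes, median 0.89). DHDDS, which makes the dolichol carrier, was at 109, 128 and 97.2 normalized CPM in aged (Tm) libraries against 27.7, 17.7, 60.1 and 15.1 in young libraries (log2 fold change 2.26, SE 0.59, adjusted p = 0.011). The gene uap1, which makes the sugar nucleotide that tunicamycin competes with, was at 550.3, 251 and 141 against 139, 106, 90.1 and 60.5 (log2 fold change 1.69, SE 0.53, adjusted p = 0.030). Both were higher in every aged (Tm) library. The gene dad1, a subunit of the oligosaccharyltransferase, had 2.18 on the log2 scale (SE 0.73, adjusted p = 0.039). ER to Golgi traffic had 18 tested genes of 42, of which 8 were higher and 0 lower (44.4 and 0%, beside 15.9 and 13.2% of all tested genes, median 1.05). Among them were ergic2 (ENSNFUG00015006465), a cargo receptor between the compartments (log2 fold change 3.21, SE 0.66, adjusted p = 0.0024), the COPI coat genes ARCN1 and copg2 (2.15 and 1.66) and the COPII gene sec23b (1.62, adjusted p = 0.036). The counts of these 3 lists moved with single libraries: without aged (Tm) replicate 2 the 8 UPR genes, 5 N-glycosylation genes and 8 traffic genes became 3, 1 and 4, and without aged (Tm) replicate 1 they became 4, 2 and 2. Without young replicate 2, 3 or 4 they were 4, 4 and 4, then 2, 3 and 2, then 5, 5 and 5, in the order UPR, N-glycosylation and traffic, and without aged (Tm) replicate 3 the UPR count was 15.

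In the Atf4 list, 10 of 15 tested genes were higher and 0 lower (66.7 and 0%, beside 15.9 and 13.2% of all tested genes), of 38 in the table, with a median of 2.67. CHAC1, an enzyme that breaks down glutathione and a textbook Atf4 target, was at 8633, 10138 and 1532 normalized CPM in aged (Tm) against 429, 185, 90.1 and 216 in young libraries (log2 fold change 4.85, SE 0.86, adjusted p = 7.2e-04). NARS, the asparaginyl-tRNA synthetase, was at 1376, 1053 and 189 against 41.6, 0, 0 and 22.7 (log2 fold change 5.54, SE 0.84, adjusted p = 2.3e-04), and VARS, the valyl-tRNA synthetase, at 633, 428 and 147 against 27.7, 26.5, 0 and 34.0 (log2 fold change 3.84, SE 0.60, adjusted p = 2.8e-04). All 3 genes were higher in every aged (Tm) library than in any young one. SLC3A2, the heavy chain shared by several amino acid transporters, was at 1204, 1031 and 508 normalized CPM against 125, 141, 180.3 and 136 (log2 fold change 2.67, SE 0.53, adjusted p = 0.0017), and the gene ATF4B2 for the factor itself at 1303, 1651 and 447 against 263, 221, 180.3 and 178 (log2 fold change 2.42, SE 0.60, adjusted p = 0.0083). Neither overlapped between the groups. The count of higher genes in this list stayed between 9 and 13 when any single library was left out.

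Of 7 tested genes in the list of AP-1 and other immediate early genes (25 in the table), 4 were higher, 0 lower and 3 not called (KLF2, KLF6 and NR4A1), with a median of 2.51. The shares of 57.1% higher and 0% lower stand beside 15.9 and 13.2% of all tested genes. FOS was at 4387, 1277 and 128 normalized CPM in aged (Tm) libraries against 97.0, 106, 0 and 90.8 in young libraries (log2 fold change 4.56, SE 0.90, adjusted p = 0.0016), and FOSL2 at 1194, 609 and 241 against 125, 106, 30.0 and 56.7 (log2 fold change 3.04, SE 0.61, adjusted p = 0.0019). Aged (Tm) replicate 1 had the most of both and replicate 3 the least, above all young libraries. The gene atf3, a stress factor that is also on the Atf4 list, and KLF9 had log2 fold changes of 3.05 and 2.51 (adjusted p = 0.0032 and 0.0088). Among 17 tested redox genes, 4 were higher and 1 lower (23.5 and 5.88%, beside 15.9 and 13.2% of all tested genes). FTH1A, the ferritin heavy chain, was at 7688, 8043 and 3143 against 2147, 759.6, 180.3 and 953 normalized CPM (log2 fold change 2.63, SE 0.94, adjusted p = 0.051), hmox1a, the haem oxygenase, at 129.8, 267 and 270.4 against 41.6, 44.2, 30.0 and 98.4 (log2 fold change 1.84, SE 0.66, adjusted p = 0.051), and the quinone reductase gene NQO1 was lower (log2 fold change -1.58, SE 0.55, adjusted p = 0.046). The redox count of 4 was 0 or 1 when aged (Tm) replicate 1 or 2 or young replicate 2 or 3 was left out and 7 without aged (Tm) replicate 3. Of 26 genes of cholesterol synthesis only 2 could be tested, and both were higher (beside 15.9% of all tested genes), among them the rate-limiting reductase HMGCRB (log2 fold change 2.02, SE 0.57, adjusted p = 0.016). The other, PMVK, had 1.90 (adjusted p = 0.052), lost its call without young replicate 2 and was too low to be tested without young replicate 4 or any one aged (Tm) library. Counts in young libraries were 6, 6, 0 and 35 for HMGCRB and 2, 2, 0 and 9 for PMVK. Both could thus enter the test through the aged (Tm) libraries alone.

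**Figure D3:**
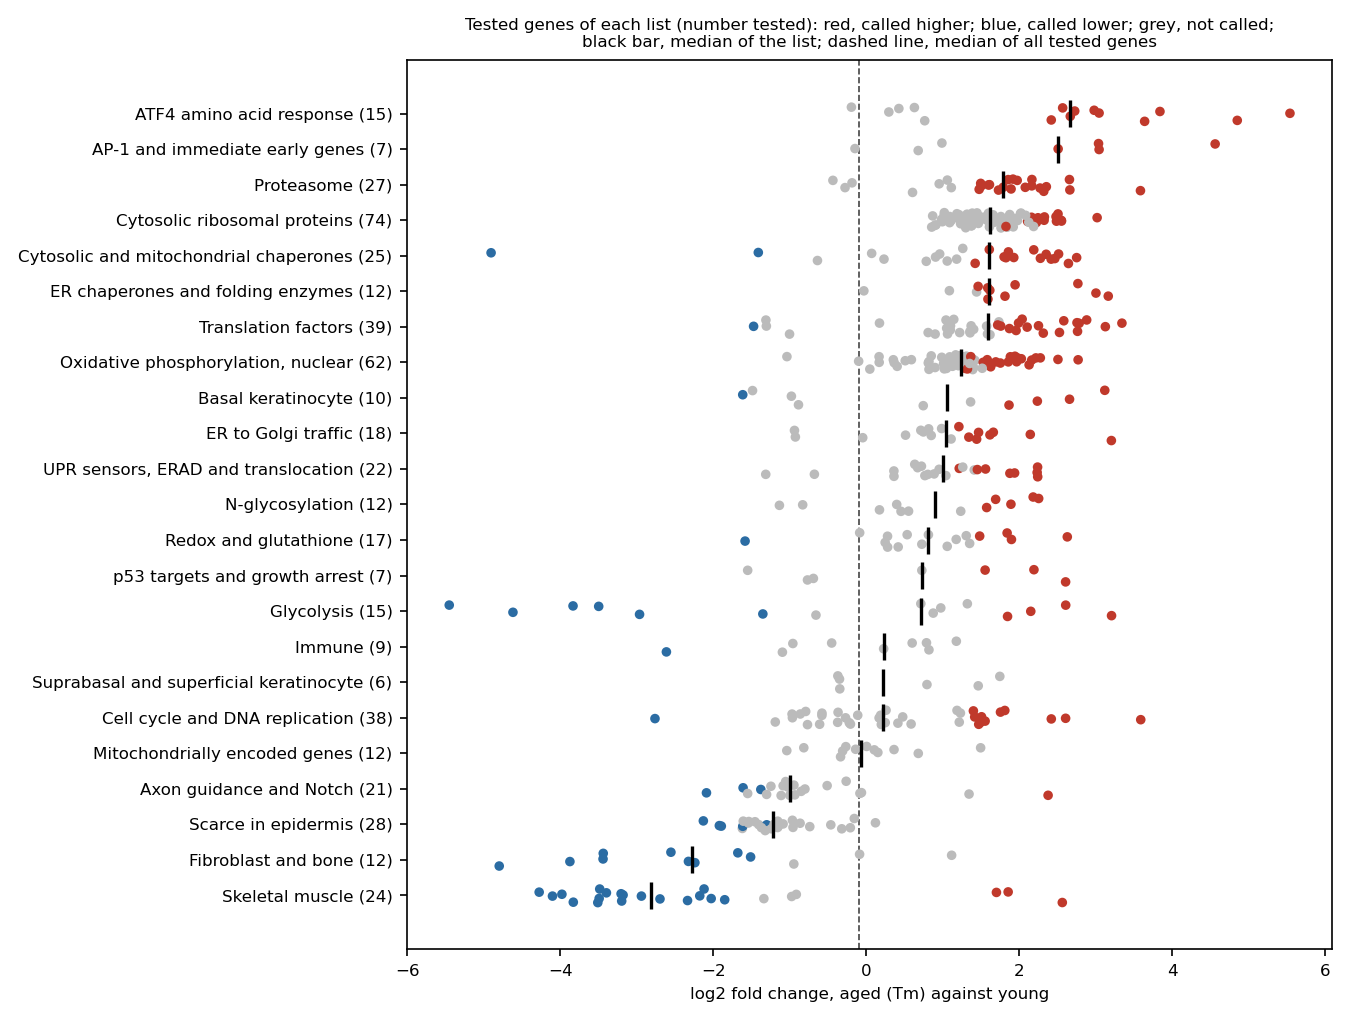
Log2 fold change, aged (Tm) against young, of every tested gene in 23 gene lists, ordered by the median of the list (black bar), with genes called higher in red, called lower in blue and the rest in grey. The Atf4 list has a median of 2.67 and skeletal muscle one of -2.82, and the dashed line marks the median of all tested genes, -0.10.

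In the proteasome, the complex that degrades ubiquitinated proteins, 20 of 27 tested genes were higher and 0 lower (48 in the table, median 1.79). That is 74.1 and 0%, beside 15.9 and 13.2% of all tested genes. PSMB2, a subunit of the core particle, was at 135, 160.3 and 87.4 normalized CPM in aged (Tm) libraries and 13.9, 0, 0 and 15.1 in young libraries (log2 fold change 3.59, SE 0.75, adjusted p = 0.0026), and PSMD3 of the regulatory particle at 379, 229.8 and 87.4 against 55.4, 17.7, 0 and 75.7 (log2 fold change 2.27, SE 0.60, adjusted p = 0.011). Low counts left PSMB2 at 0 in 2 young libraries. The gene psme3, an activator of the core particle, had 2.66 on the log2 scale (SE 0.66, adjusted p = 0.0081). With any single library left out between 14 and 23 proteasome genes were higher.

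Cytosolic and mitochondrial chaperones had 25 tested genes of 38, of which 14 were higher and 2 lower (56 and 8%, beside 15.9 and 13.2% of all tested genes, median 1.61). Higher members included hspa4b of the Hsp110 family (log2 fold change 2.47, SE 0.55, adjusted p = 0.0040), CCT7 of the chaperonin for actin and tubulin (log2 fold change 2.42, SE 0.55, adjusted p = 0.0045) and HSP90AA1.2 (log2 fold change 2.35, SE 0.55, adjusted p = 0.0054). PFDN2, a prefoldin subunit, was at 597, 572 and 319 normalized CPM against 97.0, 106, 210.3 and 159 (log2 fold change 1.83, SE 0.53, adjusted p = 0.019). The lower members were HSPB1, a small heat shock protein, at 88.2, 118 and 100.4 against 1717, 4054, 4447 and 2122 normalized CPM (log2 fold change -4.91, SE 0.83, adjusted p = 5.4e-04), and BAG3, a co-chaperone (log2 fold change -1.41, SE 0.50, adjusted p = 0.051). Both are known from mammals to be abundant in skeletal muscle, whose marker genes were lower in aged (Tm). With the skeletal muscle covariate HSPB1 was still called lower and BAG3 was called no longer. The part of muscle in their values was not tested further. The count of 14 became 9 without aged (Tm) replicate 1, and that of 2 became 1 without aged (Tm) replicate 2 or 3 or young replicate 4.

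Of 39 tested translation factor genes (62 in the table), 17 were higher and 1 was lower (43.6 and 2.56%, beside 15.9 and 13.2% of all tested genes, median 1.59). The gene eif2s2, a subunit of the initiation factor that Perk phosphorylates, was at 1479, 786 and 622 normalized CPM in aged (Tm) libraries and 55.4, 115, 90.1 and 257 in young libraries (log2 fold change 2.78, SE 0.60, adjusted p = 0.0032). Its partner EIF2S3 had 2.88 on the log2 scale (SE 0.62, adjusted p = 0.0031), EIF3JB 3.34 on the log2 scale (SE 0.61, adjusted p = 9.4e-04) and EIF4A3, part of the exon junction complex, 2.76 on the log2 scale (SE 0.57, adjusted p = 0.0023). The lower gene was the helicase EIF4A2 (log2 fold change -1.47, SE 0.52, adjusted p = 0.049), at 93.4, 96.2 and 38.9 against 346, 177, 60.1 and 201 normalized CPM, with overlap between the groups. The gene eif4eb, the cap-binding factor, was not called (log2 fold change 0.90, SE 0.59, adjusted p = 0.26). The count of 17 was 30 without aged (Tm) replicate 3, and EIF4A2 lost its call without any one of the aged (Tm) libraries or young replicate 1 and was too low to be tested without young replicate 4.

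Of 74 tested cytosolic ribosomal protein genes (77 in the table), 13 were higher and 0 lower (median 1.61), a share of 17.6% beside 15.9% of all tested genes. The fold change was positive for all 74, also with RLE, upper quartile and total count scaling, whereas with the skeletal muscle covariate 43 were called lower and 0 higher, and with the receptor, opsin and synapse covariate 0 were called in either direction. The gene rps13 was at 561, 844 and 319 normalized CPM in aged (Tm) libraries and 139, 0, 0 and 109.7 in young libraries (log2 fold change 3.02, SE 0.87, adjusted p = 0.019), and rpl18 at 1454, 1908 and 729 against 305, 61.8, 90.1 and 431 (log2 fold change 2.55, SE 0.79, adjusted p = 0.027). Young replicates 2 and 3 were lower than the other young libraries in both genes. In 61 of the 74 genes some library had more than 1000 counts. The number called swung from 1 without aged (Tm) replicate 2 or young replicate 2, and 3 and 5 without aged (Tm) replicate 1 or young replicate 3, to 31 without young replicate 1 and 33 without aged (Tm) replicate 3. RPL10 at 2.48 (adjusted p = 0.041) and the other called genes were all higher.

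Nuclear genes of oxidative phosphorylation had 62 tested members of 94, with 21 higher and 0 lower (33.9 and 0%, beside 15.9 and 13.2% of all tested genes, median 1.24). None of the 12 tested mitochondrially encoded genes was called (median -0.07, range -1.04 to 1.5). CYCSB, a cytochrome c gene, was at 332, 219 and 142 normalized CPM in aged (Tm) libraries and 0, 26.5, 30.0 and 53 in young libraries (log2 fold change 2.77, SE 0.61, adjusted p = 0.0037). NDUFA5 of complex I had 2.22 on the log2 scale (SE 0.58, adjusted p = 0.011) and COX5A of complex IV (ENSNFUG00015022073) 2.28 on the log2 scale (SE 0.64, adjusted p = 0.016). The difference between nuclear and mitochondrial genes was not tested. Some library had more than 1000 counts in 8 of the 12 mitochondrially encoded genes and in 0 of the 62 nuclear genes. The count of 21 was 10 and 8 without aged (Tm) replicate 1 and 2, 39 without replicate 3, and 8 and 11 without young replicate 2 and 3.

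Cell cycle and DNA replication genes had a median of 0.22 as a list (38 tested of 108, 11 higher, 1 lower), which turned to -0.18 and -0.11 with upper quartile and total count scaling. The called genes leaned to higher, at 28.9% higher and 2.63% lower beside 15.9 and 13.2% of all tested genes. The gene pcna, the sliding clamp of DNA replication, was at 363, 668 and 633 normalized CPM in aged (Tm) libraries and 139, 168, 60.1 and 223 in young libraries (log2 fold change 1.81, SE 0.60, adjusted p = 0.037). MCM2, of the replicative helicase, was at 457, 310.0 and 172 against 55.4, 53, 60.1 and 60.5 (log2 fold change 2.42, SE 0.53, adjusted p = 0.0036), and RPA2, which binds single-stranded DNA, had 1.51 on the log2 scale (SE 0.48, adjusted p = 0.033). Replication genes were thus among the higher ones, with no overlap between the groups for pcna and MCM2. POLD2, a subunit of DNA polymerase delta, was the 1 lower gene, at 41.5, 74.8 and 89.1 against 803, 344, 361 and 401 (log2 fold change -2.76, SE 0.63, adjusted p = 0.0050).

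Of 7 tested p53 target and growth arrest genes 3 were higher, 0 lower and 4 not called, and 1 was called without young replicate 2. The shares of 42.9% higher and 0% lower, of few genes, stand beside 15.9 and 13.2% of all tested genes. CDKN1A, the inhibitor of cyclin-dependent kinases known as p21, was at 156, 214 and 173 normalized CPM in aged (Tm) libraries and 27.7, 26.5, 0 and 37.8 in young libraries (log2 fold change 2.61, SE 0.54, adjusted p = 0.0023), and CCNG2 (ENSNFUG00015000288), an unconventional cyclin known to restrain the cycle and counted in the cell cycle list, at 2123, 1587 and 283 against 69.3, 132, 90.1 and 132 (log2 fold change 3.59, SE 0.71, adjusted p = 0.0017). BTG1, an antiproliferative gene, was at 1879, 743 and 1199.9 against 402, 185, 60.1 and 424 (log2 fold change 2.19, SE 0.69, adjusted p = 0.029), and rrm2b, a p53 target that supplies nucleotides for repair, had 1.55 on the log2 scale (SE 0.51, adjusted p = 0.038). Not called were CCNG1 (ENSNFUG00015009320) at -0.77 (95% interval -1.96 to 0.42), CDK4 at 1.19 (-0.07 to 2.44), CDK7 at -0.21 (-1.15 to 0.73) and top2b at 0.19 (-0.74 to 1.11). The count of 11 cell cycle genes was 5 without aged (Tm) replicate 2 or young replicate 2 and 6 without young replicate 4.

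Markers of the basal layer gave a mixed picture. The gene tp63, whose protein marked the cells to be read, was at 2253, 2854 and 1768 normalized CPM in aged (Tm) and 2285, 1228, 451 and 1475 in young libraries, overlapping and not called (log2 fold change 0.75, SE 0.72, adjusted p = 0.44, 95% interval -0.74 to 2.23). The gene krt5 was at 18029, 18848 and 6990.5 against 53573, 32876, 61145 and 16386 (log2 fold change -1.49, SE 0.82, adjusted p = 0.19). Its raw counts were 3473, 3527 and 4317 in aged (Tm) and 3868, 3722, 2035 and 4331 in young libraries, and whether high counts were limited in the making of the table was not tested. Basal keratinocyte genes gave 10 tested members of 13, with 4 higher and 1 lower (40 and 10%, beside 15.9 and 13.2% of all tested genes, median 1.06). The hemidesmosome integrins ITGA6 and itgb4, which anchor basal cells, were at 280.3, 176 and 649 against 13.9, 70.7, 30.0 and 41.6 (log2 fold change 3.12, SE 0.57, adjusted p = 0.0010) and at 2341, 566 and 1632 against 235, 389, 60.1 and 545 (log2 fold change 2.24, SE 0.75, adjusted p = 0.039). Every aged (Tm) library was above every young one for both. ITGB1 was higher (log2 fold change 2.66, SE 0.63, adjusted p = 0.0062) and its paralogue itgb1a lower (log2 fold change -1.62, SE 0.47, adjusted p = 0.021), whereas ITGA6A was not called (log2 fold change -0.89, SE 0.73, adjusted p = 0.36). The gene plecb, a plectin that links keratin to hemidesmosomes, had 1.87 on the log2 scale (SE 0.74, adjusted p = 0.077). The count of 4 was 1 without aged (Tm) replicate 1. None of 6 tested suprabasal genes of 13 was called (1 at an unadjusted p below 0.05, and 2 with DESeq2), and of 9 tested immune genes of 21 only CD74B was, which was lower (log2 fold change -2.61, SE 0.68, adjusted p = 0.011). That is 11.1% of the immune genes, beside 13.2% lower among all tested genes.

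Of 24 tested skeletal muscle genes of 54, 18 were lower, 3 higher and 3 not called, with a median log2 fold change of -2.82. That is 75% lower and 12.5% higher, beside 13.2 and 15.9% of all tested genes. The 3 higher genes were MYH9, myh9b and myh14 (2.56, 1.86 and 1.70), which encode non-muscle myosins and came into the list by the start of their symbols. The gene myl1, a myosin light chain of fast fibres, was at 57.1, 42.8 and 61.5 normalized CPM in aged (Tm) libraries and 665, 1589.9, 1352 and 677 in young libraries (log2 fold change -4.28, SE 0.69, adjusted p = 3.5e-04). The gene ckmb, a muscle creatine kinase, was at 213, 128 and 262 against 1219, 2358, 2554 and 2421 (log2 fold change -3.40, SE 0.71, adjusted p = 0.0026), and TNNI2, fast troponin I, at 5.19, 21.4 and 21.1 against 263, 177, 270.4 and 136 (log2 fold change -3.51, SE 0.55, adjusted p = 2.6e-04). Muscle transcripts were present in the young libraries despite the choice of p63-positive cells, and all of these genes were lower in every aged (Tm) library. Genes mss51 and casq1b, the calsequestrin of muscle, had -4.10 and -3.49 (adjusted p = 2.3e-04 and 5.7e-04).

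Of 12 tested fibroblast and bone genes of 22, 9 were lower and 0 higher (75 and 0%, beside 13.2 and 15.9% of all tested genes, median -2.28). The gene col1a1b, which encodes a chain of type I collagen, was at 62.3, 69.5 and 179.7 normalized CPM in aged (Tm) libraries and 4806, 2252, 1352 and 3435 in young libraries (log2 fold change -4.80, SE 0.90, adjusted p = 0.0011), and COL1A2 at 280.3, 337 and 719 against 9487, 6413, 4807 and 5561 (log2 fold change -3.88, SE 0.87, adjusted p = 0.0044). The gene postnb, a matrix protein of fibroblasts, was at 72.7, 90.8 and 538 against 4861, 2058, 1142 and 2251 (log2 fold change -3.44, SE 0.96, adjusted p = 0.016), with aged (Tm) replicate 3 the highest of its group. COL2A1A, a cartilage collagen outside the list, had 10.4, 16.0 and 9.72 against 651, 662, 150.2 and 109.7 normalized CPM (log2 fold change -5.03, SE 0.76, adjusted p = 2.3e-04). FBN1, fibrillin, had -2.33 on the log2 scale (SE 0.58, adjusted p = 0.0084). Without aged (Tm) replicate 1 or 2 the 9 lower genes became 3 and 5.

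Among the other lowest genes, ENTPD5 encodes a nucleotide hydrolase of the ER that supports glycoprotein folding in mammals. It was at 5.19, 0 and 14.6 normalized CPM in aged (Tm) libraries and 568, 168, 361 and 314 in young libraries (log2 fold change -5.20, SE 0.74, adjusted p = 1.7e-04). The gene cherp, named for ER calcium homeostasis, had -4.30 on the log2 scale (SE 0.88, adjusted p = 0.0022), asb10 -4.37 on the log2 scale (SE 0.64, adjusted p = 1.7e-04) and otos -4.20 on the log2 scale (SE 0.65, adjusted p = 2.6e-04). ENTPD5 moved in the direction of the fibroblast and bone list (median -2.28) and opposite to the ER chaperones (median 1.6). It was also lower in aged fish kept in DMSO than in young fish (-2.88, SE 0.63, adjusted p = 0.037). Whether its level belongs with either list was not tested. Genes of axon guidance and Notch signalling had 21 tested members of 94, with 1 higher, sema4e at 2.38 on the log2 scale (SE 0.54, adjusted p = 0.0045), and 3 lower, epha6 at -2.09, robo2 at -1.38 and sema3bl at -1.61. These shares of 4.76% higher and 14.3% lower stand beside 15.9% and 13.2% of all tested genes. PLXNA2 (ENSNFUG00015010192) and SEMA3AB were not called (-0.51 and -1.30, adjusted p = 0.60 and 0.29). Of the 202 receptor, opsin and synapse genes 28 were tested, of which 5 were lower and 0 higher (median -1.22), and the summed levels given above overlapped between the groups. The lower share was 17.9% beside 13.2% of all tested genes. The 3 lower guidance genes were 0 without aged (Tm) replicate 1 or 2, 1 without young replicate 4 and 8 without young replicate 1, and the 5 lower receptor genes were 0 or 1 without either of those aged (Tm) libraries, 2 without young replicate 2 or 3, 3 without young replicate 4 and 12 without young replicate 1.

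Glycolysis split by gene copy, with 15 tested genes of 33, of which 4 were higher and 6 lower (26.7 and 40%, beside 15.9 and 13.2% of all tested genes). Higher were PGAM1A, the phosphoglycerate mutase of most tissues, at 436, 278 and 98.8 normalized CPM against 41.6, 26.5, 30.0 and 22.7 (log2 fold change 3.21, SE 0.64, adjusted p = 0.0018), and eno1a, the enolase of most tissues, at 799, 791 and 262 against 125, 97.2, 180.3 and 159 (log2 fold change 2.15, SE 0.59, adjusted p = 0.015). Lower were their muscle forms: pgam2 was at 10.4, 26.7 and 19.4 against 637, 1669, 871 and 269 (log2 fold change -5.45, SE 0.80, adjusted p = 1.7e-04) and eno3 at 0, 16.0 and 13 against 41.6, 97.2, 210.3 and 272 (log2 fold change -3.83, SE 0.71, adjusted p = 0.0010). For each of these enzymes the 2 gene copies lay on opposite sides with no overlap between the groups.

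The same held for glyceraldehyde-3-phosphate dehydrogenase. The gene gapdhs was at 690.4, 743 and 254 normalized CPM in aged (Tm) libraries and 125, 44.2, 60.1 and 121 in young libraries (log2 fold change 2.61, SE 0.75, adjusted p = 0.019), and GAPDH (ENSNFUG00015002376) at 140.2, 107 and 256 against 1773, 5794, 7512 and 1657 (log2 fold change -4.62, SE 0.94, adjusted p = 0.0022). A second gene with the symbol GAPDH had too few counts to be tested. The aldolase ALDOAA was lower, at 1443, 1566 and 1461 against 10859, 22374, 27493 and 6704 (log2 fold change -3.50, SE 0.88, adjusted p = 0.0090), as was pgm1 (log2 fold change -2.96, SE 0.69, adjusted p = 0.0054), and pkma, a pyruvate kinase, was higher (log2 fold change 1.85, SE 0.65, adjusted p = 0.049). ALDOAA stood near even levels in the 3 aged (Tm) libraries. The lower glycolytic genes moved in the same direction as the summed skeletal muscle genes, and that part was not tested further. In the fit with skeletal muscle as a covariate 0 glycolytic genes were higher and 3 lower.

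**Figure D4:**
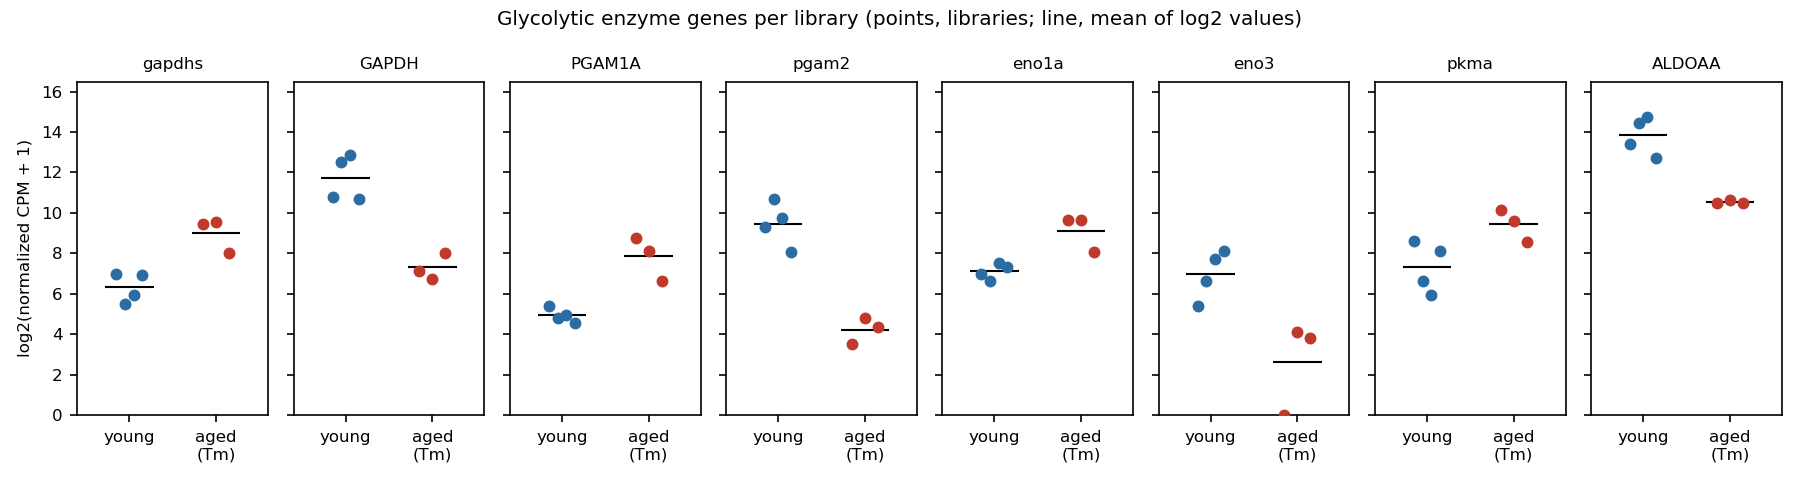
Levels of 8 glycolytic enzyme genes in each young and aged (Tm) library, as log2(normalized CPM + 1), with the mean of the log2 values as a line. The genes gapdhs, PGAM1A, eno1a and pkma were higher in aged (Tm), and GAPDH, pgam2, eno3 and ALDOAA were lower.

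The genes that differed with age were then followed into the treated libraries. Of 28 genes called between aged and young, 25 were lower with age, and all 25 were also called lower in aged (Tm), 23 of them with no overlap between the groups. Among all tested genes 13.2% were called lower and 13.9% were lower with no overlap. Because both comparisons use the same 4 young libraries, a high young value enters both, so the count is a description and not a repeat of the finding. Of the 25 genes 5 are on the skeletal muscle list, 2 on the fibroblast and bone list and 3 on the glycolysis list, and 15 are on none of them. The 15 may still include muscle or dermal genes, since the lists are not complete and 5 of the 25 have no symbol. The gene pgam2 was at -3.66 (SE 0.68, adjusted p = 0.024) in aged and -5.45 in aged (Tm) against young, GAPDH at -3.71 (SE 0.81, adjusted p = 0.037) and -4.62, col1a1b at -3.67 (SE 0.76, adjusted p = 0.028) and -4.80, and ENTPD5 at -2.88 (SE 0.63, adjusted p = 0.037) and -5.20. Each of these had a lower value after treatment, but the aged (Tm) and aged libraries were not compared here.

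Outside the muscle and collagen lists, s100b, a calcium-binding protein, was at 15.6, 5.34 and 8.10 normalized CPM in aged (Tm) and 55.4, 132, 120.2 and 144 in young libraries (log2 fold change -3.55, SE 0.69, adjusted p = 0.0015, against -3.54 in aged). The gene htra1a, a secreted protease, was at 15.6, 10.7 and 38.9 against 360.1, 229.7, 331 and 144 (log2 fold change -3.33, SE 0.54, adjusted p = 3.8e-04, against -2.75), and the LIM domain gene FHL2 at 36.3, 64.1 and 110.1 against 817, 954, 120.2 and 745 (log2 fold change -3.20, SE 0.75, adjusted p = 0.0056, against -3.16). All 3 stayed below every young library. ANGPTL7, an angiopoietin-like secreted protein, had -3.08 on the log2 scale (SE 0.72, adjusted p = 0.0054) against -2.73 in aged. The muscle genes MYBPHB, pvalb7 and alpk2 had -2.84, -3.20 and -1.99 against -2.33, -2.76 and -3.10.

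The genes nearest to young after treatment among the 25 were S100A2 and EIF4A2. S100A2, a calcium-binding protein of keratinocytes in mammals, was at 166, 149.6 and 165 normalized CPM in aged (Tm) and 485, 353, 180.3 and 511 in young libraries (log2 fold change -1.29, SE 0.51, adjusted p = 0.079, against -2.07 in aged). EIF4A2, given above, had -1.47 against -2.37. The 95% intervals for aged (Tm) against young, -2.35 to -0.22 and -2.54 to -0.40, stayed below 0, but S100A2 lost its call when any single library other than young replicate 3 was left out.

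The 3 genes that were higher in aged than in young fish were not called after treatment. BX927253.1 was at 0, 10.7 and 1.62 normalized CPM in aged (Tm) libraries and 13.9, 17.7, 0 and 15.1 in young libraries, -1.92 on the log2 scale (SE 1.29, adjusted p = 0.27) beside 4.71 (SE 0.88, adjusted p = 0.024) in aged. The identifiers ENSNFUG00015005564 and ENSNFUG00015000206, for which the table has no symbol, had -1.45 and -1.14 (adjusted p = 0.16 and 0.28) beside 2.79 and 2.48 in aged. All 3 estimates were below 0 after treatment. Their 95% intervals, -4.60 to 0.75, -3.0 to 0.09 and -2.76 to 0.49, are too wide to say that they equalled young. BX927253.1 had 3 counts in all aged (Tm) and 7 in all young libraries, and ENSNFUG00015000206 had 8 and 9. ENSNFUG00015005564 was at 332, 224 and 332 normalized CPM in aged (Tm) against 429, 680, 1232 and 931 in young libraries. Its groups did not overlap, and under another setting it was called lower.

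**Figure D5:**
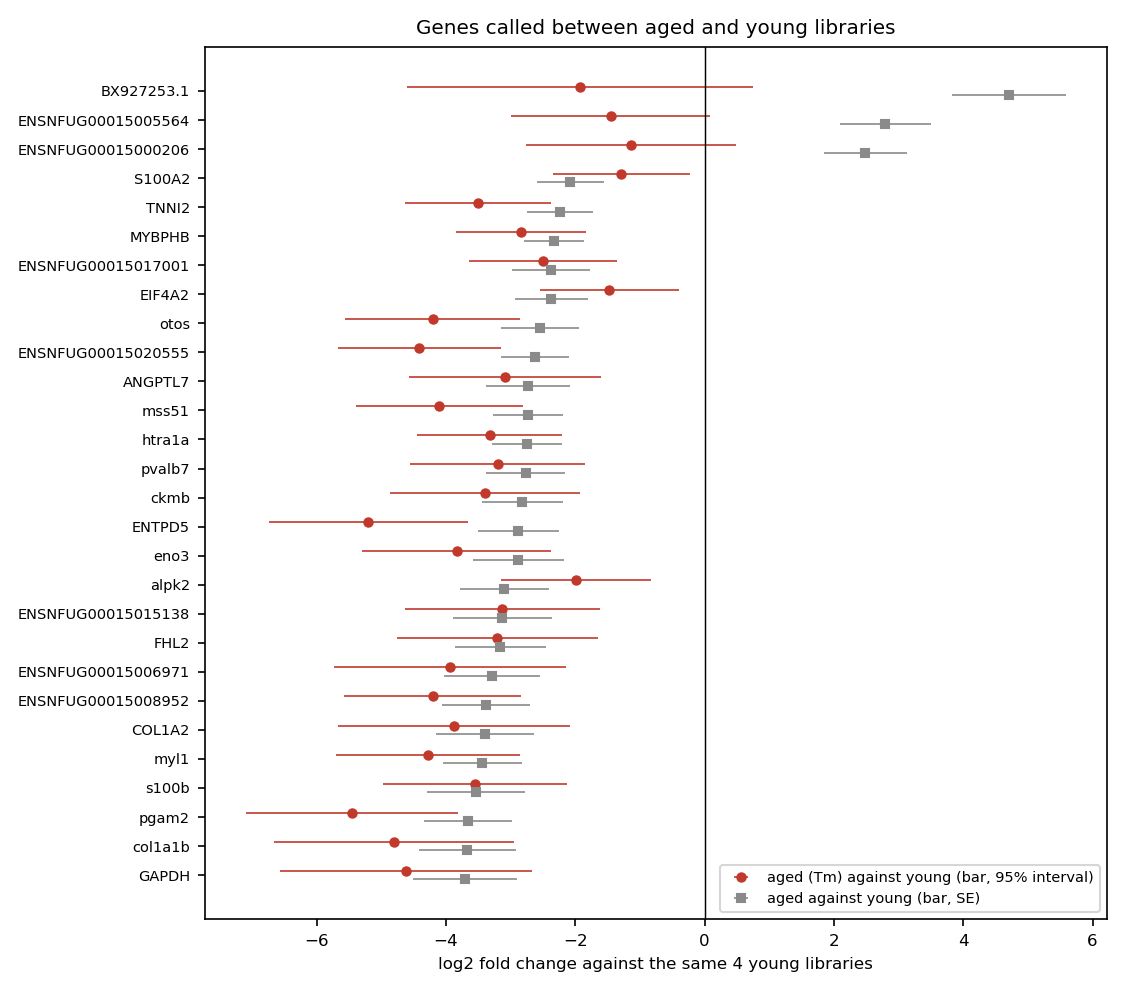
Log2 fold change of the 28 genes called between aged and young libraries, with aged (Tm) against young as red circles (bar, 95% interval) and aged against young as grey squares (bar, SE), both against the same 4 young libraries. All 25 genes lower with age stay to the left of 0 after treatment, and the 3 genes higher with age have intervals that include 0.

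Few genes could be shown to be close to young. Of the 2808 genes that were not called, the 95% interval of the log2 fold change lay within a 2-fold difference in either direction for 9, and within a 4-fold difference for 1532 of all tested genes (of which 1 was called). The median SE of 0.59 sets this limit. The 5 most expressed of the 9 with a symbol were eny2, vbp1, MAPK13, AP3D1 and metrnla. Over 21 other settings their estimates ran from -0.47 to 0.61, -0.39 to 0.64, -0.50 to 0.53, -0.38 to 0.59 and -0.47 to 0.55 in this order. With intervals this wide, shifts of that size can take a gene out of the 2-fold bound. The gene eny2, of a histone modifying and mRNA export complex, was at 228, 305 and 209 normalized CPM in aged (Tm) and 249, 291, 240.4 and 201 in young libraries (0.01, -0.97 to 0.99). MAPK13, a p38 kinase of epithelia, was at 119, 214 and 159 against 166, 159, 180.3 and 174 (-0.05, -0.99 to 0.89), and vbp1, a prefoldin subunit, at 182, 149.6 and 149 against 111, 150.2, 150.2 and 185 (0.07, -0.83 to 0.97). The libraries of both groups were intermixed in all 3 genes. AP3D1, of a vesicle adaptor, and metrnla had 0.03 (-0.94 to 1.00) and -0.01 (-0.95 to 0.93). HNRNPUA, a nuclear RNA-binding protein, was at 467, 358 and 275 against 208, 503, 331 and 219 and had 0.22 with a wider interval of -0.86 to 1.29. Leaving out any single library left 1 to 5 bounded genes: 1 without aged (Tm) replicate 2 or 3, 2 without young replicate 2 or 4, 3 without young replicate 3, and 5 without aged (Tm) replicate 1 or young replicate 1.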

How the data were processed

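PIC libraries of sectioned epidermis (trunk and fin in the methods of the study) from 4 young, 4 aged and 3 aged (Tm) samples were analysed. The authors deposited a table of UMI counts per gene, not normalized, and a list of replicate barcodes, used only to see which recur between conditions. Per the submitters' processing notes, the reads went through UMI-tools 1.0.0, HISAT2 2.1.0, featureCounts 1.6.4 and DESeq2 1.20.0. The genome build, the annotation and the length of the UMI are not given in the sources used here. A UMI count cannot exceed the number of possible UMIs, so a short UMI would flatten the counts of abundant genes.

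Counts were fitted in R 4.3.3 with the quasi-likelihood test of edgeR 4.0.16 over all 11 libraries (TMM scaling, filterByExpr), and the contrast of aged (Tm) with young was adjusted by the method of Benjamini and Hochberg over all tested genes, with a threshold of 0.1. Intervals are 95%, and a gene counted as bounded when its interval lay within 1 on the log2 scale. Single values per library were compared by exact two-sided permutation tests. Alternatives used limma 3.58.1 (voom), DESeq2 1.42.0, other scalings, filters and covariates, thinning to 35366 counts and each library left out in turn. The test was tried first on simulated counts with the real library sizes, a common dispersion for all genes and 50 genes changed per setting. It called 28 and 78% of the genes set to -2 and -3 on the log2 scale. Of the genes set to 2 and 3 it called 66 and 100%, and 5.56% of its calls were false. Figures were drawn with matplotlib 3.10.9.

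The text names the 10 highest and 10 lowest genes with a symbol, no overlap and counts in at least 2 libraries of each group, up to 4 members of each list per direction by p, genes treated in the study, genes called with age, 5 bounded genes and the basal markers. Members and lists were chosen with earlier results of these data known. The study counts the libraries as biological replicates without describing the fish behind each, and p-values measure the spread between these libraries. No sequences or coordinates are given.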

Additional observations from a re-analysis of the deposited data

Results flagged for a closer look

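Among 155 named genes and the library measures, 170 quantities in all, 11 had 1 young library that stood apart from the other 3 by Dixon's criterion, which chance meets in about 1 in 20 groups. The groups of 3 aged (Tm) libraries are too small for it. Values are normalized CPM. In young replicate 3, the shallowest library, where 1 count is worth 30.05, FOS and DNAJB11 were at 0 and COX5A was low at 30.05, while sec23b and HBEGFA were high at 60.09. In young replicate 1, copg2 was high at 152.4 and POLD2 at 803.3, while FBN1 was low at 41.55, eif4eb at 96.95 and the muscle gene ckmb at 1219. In young replicate 4, the non-muscle myosin gene myh9b was high at 64.32.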

How the results depend on the processing

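The 1155 called genes became 1784 with DESeq2, 173 after thinning, 740 at an adjusted p of 0.05, 2892 at 0.5, and 207 and 269 with the receptor, opsin and synapse list or the skeletal muscle list as covariate. The 632 higher genes became 406 with upper quartile scaling, 346 with total count scaling, 1057 with no filter, 1397 with DESeq2, 65 after thinning, 1375 at 0.5, and 67 and 32 with the covariates. The 523 lower genes became 907 with upper quartile scaling, 181 with no filter, 108 after thinning, 298 at 0.05, 1517 at 0.5, and 140 and 237 with the covariates. With any single library left out the calls ranged from 498 to 1520, the higher genes from 335 to 965 and the lower from 163 to 707. The 9 bounded genes became 37 with no filter, 25 with DESeq2, 18 with limma voom, 16 in a fit of only the 7 libraries, 1 after thinning, 14 with the receptor list covariate, and 1 to 5 with a library left out. Alternatives chosen after seeing the data gave 23 with the muscle, dermal and receptor lists left out, 1 without the shallowest and the deepest library, and 1532 with a 4-fold bound. Of the 25 genes also lower with age 13 stayed called after thinning, and 19 to 23 with a library left out. Aged (Tm) libraries had 1955 more genes detected than young on average, and -2167, that is fewer, after thinning. Thinning left 600 genes to test, so fewer calls follow partly from that. For the other changes the cause was not tested. The losses listed next leave out genes too low to be tested in the fit concerned. Of the 130 named genes that were called, calls were lost without aged (Tm) replicate 1 (robo2, alpk2, NQO1, plecb, BTG1, tgm1l1, RPL10, pkma, epha6, uap1, EIF4A2, myh14, postnb, FTH1A, HSP90B1, itgb1a, sec23b, S100A2, sema3bl, itgb4, SEC61A1, sec61g, srp72, ssr2), aged (Tm) replicate 2 (robo2, NQO1, plecb, dad1, RPL10, pkma, WDR12, epha6, EIF4A2, rpl18, pcna, postnb, selenok, hmox1a, FTH1A, HSP90B1, S100A2, sema3bl, BAG3, SEC61A1, sec61g, srp72, ssr2), young replicate 2 (robo2, RPA2, plecb, BTG1, dad1, RPL10, pkma, WDR12, epha6, myh14, rpl18, tlr22, rrm2b, pcna, hmox1a, FTH1A, HSP90B1, PMVK, S100A2, SEC61A1, sec61g, srp72, ssr2), and 5 to 10 each without the others.

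With the skeletal muscle covariate 26 named genes changed sign, to BTG1 -0.13, gapdhs -2.09, NARS -2.43, SSR4 -0.16, dad1 -0.83, rps13 -3.40, RPL10 -1.84, pkma -1.11, rpl18 -1.74, NDUFA5 -0.63, PGAM1A -0.058, pcna -0.32, PSMB2 -0.11, selenok -0.97, sdf2l1 -0.66, PSMD3 -0.28, SSR3 -0.057, hmox1a -0.80, FTH1A -1.46, areg -4.97, BOP1 -0.077, PMVK -1.70, SEC61A1 -1.13, ssr2 -2.59, sec61g -1.87 and itgb4 -0.036. With the receptor list covariate SEC61A1 turned to -0.0912 and ssr2 to -0.14.

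Replicate numbers did not pair the libraries: same-numbered deviations correlated at 0.03, -0.16 and 0.25. With the number as a block 1229 genes were called, 653 higher and 576 lower, of which 1021 were among the 1155, and 3 genes were bounded. The block ended the calls of NQO1, WDR12, EIF4A2, myh14, HSP90B1, S100A2, sema3bl and BAG3, called BX927253.1, and gave 27 ribosomal protein genes in place of 13.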

Other observations

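Some further genes stood out among those called between aged (Tm) and young libraries. They were chosen after their values were seen and outside the rule for named genes, so they are listed as values, not as tested groups. Several encode factors that assemble ribosomes in the nucleolus: rpf2 (4.02, SE 0.69, adjusted p = 5.7e-04), GNL3 (3.52, SE 0.60, adjusted p = 5.7e-04), PES (3.42, SE 0.64, adjusted p = 0.0011), the methyltransferase FBL (3.24, SE 0.64, adjusted p = 0.0017), nop2 (2.89, SE 0.53, adjusted p = 0.0010) and the partners BOP1 (2.16) and WDR12 (2.57), all given as log2 fold changes of aged (Tm) against young. Mean normalized CPM of FBL was 246 against 15.8 and that of GNL3 381 against 24.6, aged (Tm) first.

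A second growth factor of the epidermal growth factor family, HBEGFA, was higher beside areg, at 105 against 16.9 mean normalized CPM (3.45, SE 0.87, adjusted p = 0.0092), with overlap through young replicate 3. Genes labelled as transglutaminases, the family that crosslinks the outer envelope of keratinocytes, were also higher, namely tgm5l (3.68, SE 0.80, adjusted p = 0.0032), tgm1l2 (3.24) and tgm1l1 (2.67), while none of the 6 tested suprabasal genes of the list was called. The groups did not overlap for tgm5l but did for tgm1l2 and tgm1l1. Normalized CPM of tgm1l2 was 1464, 203 and 40.5 in aged (Tm) against 83.1, 61.8, 30.0 and 53 in young libraries. That of tgm1l1 was 1308, 331 and 134 against 83.1, 97.2, 150.2 and 64.3. Among lower genes were COL9A2, a cartilage collagen (-4.96, SE 0.81, adjusted p = 3.8e-04), the bone transcription factor DLX5A (-3.65), the parathyroid hormone receptor PTH1RA (-2.72) and comp, a cartilage matrix protein (-2.48), which moved in the same direction as the fibroblast and bone list. The receptors TLR3 and tlr22, which sense double-stranded RNA in fish, were lower as well (log2 fold changes of -2.91, SE 0.76, adjusted p = 0.011, and -2.85, SE 0.96, adjusted p = 0.040). Both had few counts. TLR3 had 1, 0 and 8 in aged (Tm) against 4, 13, 0 and 15 in young libraries, with overlap between the groups in normalized CPM. For tlr22 the counts were 0, 0 and 4 against 1, 4, 2 and 7.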
